A study of Danio rerio with 6 samples.

Results

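Mature microRNAs of the miR-17, miR-18, miR-19 and miR-20 families were followed in primordial germ cells, the embryonic precursors of eggs and sperm, taken from AB zebrafish. Members were the entries of the count table whose name, without its species prefix, begins with miR-17, miR-18, miR-19, miR-20, miR-93 or miR-106 and at most 1 letter before any arm suffix. The rule found 8 of the 134 listed microRNAs, namely miR-17a-5p, miR-18c, miR-19a-3p, miR-19b-3p, miR-19c-3p, miR-19d-5p, miR-20a-5p and miR-20a-3p. The cells, picked by their green fluorescence, came from 3 ages given in hours post fertilization (hpf), with 2 libraries each. Embryos of 6 hpf are at the shield stage, those of 11 hpf have 3 somites, and those of 24 hpf are at prim-5. No treatment or mutation is given for any group, and the source of the fluorescence is not stated in the labels. The question was how these microRNAs differ between the stages.

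These microRNAs are cut from the transcript of the miR-17 to miR-92 cluster and from those of its paralogues, which each carry several hairpins, together with miR-92, miR-25 or miR-363. One arm of a hairpin usually enters Argonaute as the active strand, and it finds target mRNAs through its seed, bases 2 to 8. In mammals the cluster is known for promoting proliferation and survival, with the death inducer Bim among its targets. In a RefSeq annotation of another assembly, GRCz12tu, used here only for the order of genes, the hairpins mir92a-1, mir19b, mir20a, mir19a, mir18a and mir17a-1 neighbour each other. A separate group holds mir363, mir19c, mir20b and mir18c, and another holds mir25, mir19d and mir93. A further copy, mir17a-2, lies beside mir92a-2 and mir18b.

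The sequences are shown as deposited, 5′ to 3′ in DNA letters with the seed in capitals, because the seed and the few bases that separate the names decide how the counts can be read.
miR-17a-5p: cAAAGTGCttacagtgcaggta
miR-20a-5p: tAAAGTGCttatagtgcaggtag
miR-18c: tAAGGTGCatcttgtgtagtta
miR-19a-3p: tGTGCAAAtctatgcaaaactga
miR-19b-3p: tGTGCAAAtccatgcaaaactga
miR-19c-3p: tGTGCAAAtccatgcaaaactcg
miR-19d-5p: aGCTTTGCggggtgggcagtcagc
miR-20a-3p: aCTGCAGTgtgagcacttgaag
miR-17a-5p and miR-20a-5p shared the seed AAAGTGC, and the miR-19 3p arms shared GTGCAAA. No listed microRNA outside the members had either seed. The seeds of miR-18c, miR-19d-5p and miR-20a-3p were each found once in the table. miR-19a-3p and miR-19b-3p lay at an edit distance of 1, miR-19b-3p and miR-19c-3p at 2, and miR-19a-3p and miR-19c-3p at 3, as did miR-17a-5p and miR-20a-5p. The rule for reads that match several of these names is not stated by the labels or the table, so the division of reads within each group is uncertain.

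The miR-17 and miR-20 seed also overlaps that of miR-430, the family that clears maternal mRNA in the early zebrafish embryo and that dominated these libraries. The 6 bases AAGTGC, bases 3 to 8 of miR-20a-5p, began at base 2 in 4 miR-430 3p arms, 2 of which are shown with those bases in capitals.
miR-20a-5p: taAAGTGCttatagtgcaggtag
miR-430a-3p: tAAGTGCtatttgttggggtag
miR-430b-3p: aAAGTGCtatcaagttggggtag
Over their whole length miR-20a-5p and each of the miR-430 arms shown differed by an edit distance of 7. No microRNA outside the members lay within an edit distance of 3 of any member.

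The libraries held 35718 to 78973 microRNA reads, of which miR-430 supplied 65.4% to 90.6%. A count of 0 allowed a level of up to 38.0 to 84.0 CPM (counts per 1000000 microRNA reads), depending on the library and with a floor of 3 reads. Floors and intervals cover counting error only, because PCR copies of a molecule are counted as separate reads. Whether libraries of a stage came from separate embryo collections is not stated, and the spread behind each p-value may therefore be technical. In these pooled cells, fewer cells carrying a microRNA and less of it per cell cannot be told apart. Of 18 listed microRNAs typical of muscle, nervous system, endothelium, sensory organs, epithelium or liver, the summed reads were 81 and 100 at 6 hpf, 121 and 61 at 11 hpf, and 358 and 525 at 24 hpf. They stood at 2268 and 1566, 2671 and 1266, and 5354 and 6648 CPM. The lists did not move alike. From 6 to 24 hpf sensory organs went from 28.0 and 31.3 to 2617 and 4090 CPM. The summed nervous system list, at 560 and 31.3 CPM at 6 hpf and 1346 and 595 at 24 hpf, was only just apart. In 24 hpf replicate 2, 42 of its 47 reads were miR-9-4-3p, which had 0 in replicate 1. The summed muscle list was also higher at 24 hpf. The muscle rise rested on miR-206-3p, which had no reads in either 6 hpf library and 51 and 50 by 24 hpf. For miR-1, the other muscle entry, each 6 hpf library held 10 reads, against 8 in 24 hpf replicate 1 and 27 in replicate 2. Epithelium went from 504 and 924 to 284 and 228 CPM, and endothelium overlapped. The liver list, miR-122 alone, had 15 reads in 6 hpf replicate 1 and 0 in every other library. Blood microRNAs and miR-202, a microRNA of the gonad, were not analysed here.

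The members together held a small share of microRNA reads, which was lowest at 6 hpf. They had 33 and 38 reads in the 6 hpf libraries, 233 and 72 at 11 hpf, and 373 and 349 at 24 hpf. As shares of microRNA reads these were 0.0924% and 0.0595%, 0.514% and 0.149%, and 0.558% and 0.442%. The mean share was 0.0760% ± 0.0232 (SD, n = 2) at 6 hpf. It was 0.332% ± 0.258 (SD, n = 2) at 11 hpf and stood at 0.500% ± 0.0820 (SD, n = 2) by 24 hpf. Both later stages lay above 6 hpf in every library, while the 11 and 24 hpf libraries overlapped. In the authors' RPM, which counts all reads of a library, the members summed to 3.15 and 3.13 at 6 hpf, 16.3 and 7.98 at 11 hpf, and 31.8 and 16.4 at 24 hpf, where the later stages did not overlap. The exact 95% binomial intervals of the 11 hpf shares, 0.450% to 0.584% and 0.117% to 0.188%, did not meet. Those libraries thus differed by more than the counting error of independent reads, which leaves out the effect of PCR copies. Outside the miR-430 family, whose own share was lower at each later stage, the members held 0.745% and 0.632% of reads at 6 hpf, 2.59% and 0.972% at 11 hpf, and 2.12% and 1.28% at 24 hpf.

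**Figure D1:**
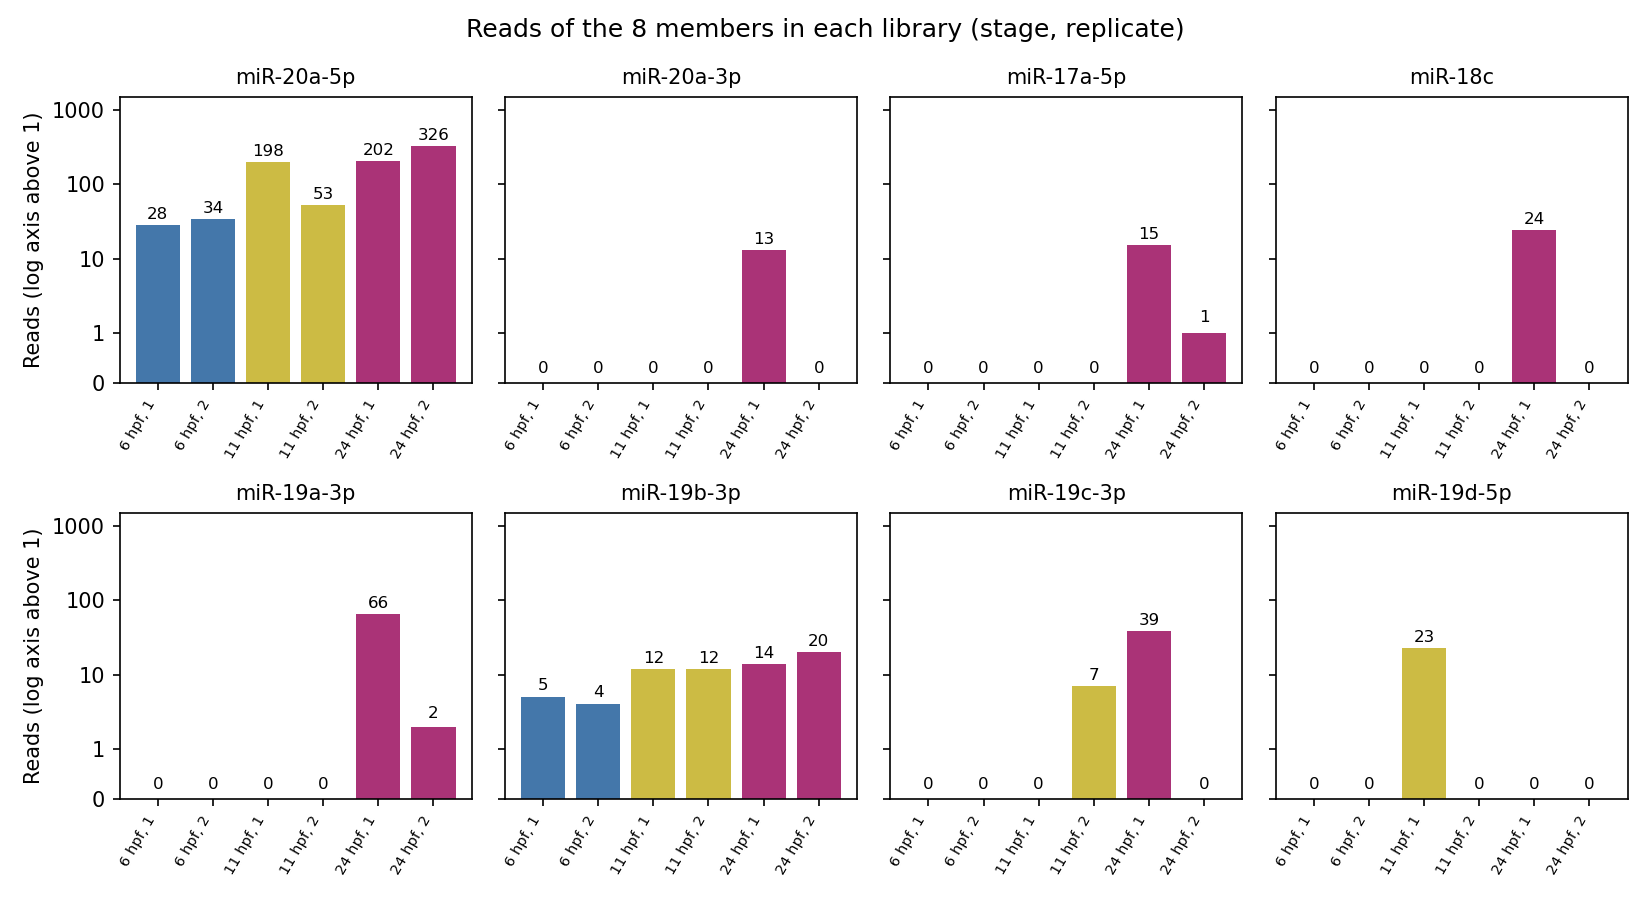
Reads of each member in the 6 libraries, 1 panel per member, with stage and replicate on the x axis and reads on a log axis that becomes linear below 1. miR-20a-5p and miR-19b-3p have reads in all 6 libraries, and the other 6 members have none at 6 hpf.

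Most of these reads were miR-20a-5p, the active strand of the mir20a hairpin. It made up 84.8% and 89.5% of member reads at 6 hpf, 85.0% and 73.6% at 11 hpf, and 54.2% and 93.4% at 24 hpf. It had 28 and 34 reads at 6 hpf, 198 and 53 at 11 hpf, and 202 and 326 at 24 hpf. In CPM the levels were 783.9 and 533, 4370.0 and 1099.6, and 3021 and 4128. The 6 hpf libraries were the lowest, and the 11 hpf libraries lay on either side of the 24 hpf libraries. In the authors' RPM the 6 hpf libraries were also lowest, but both 11 hpf libraries, at 13.9 and 5.88, lay below those of 24 hpf at 17.2 and 15.4. By stage mean in CPM it ranked 27 of the 85 microRNAs with reads at 6 hpf, 17 of 99 at 11 hpf and 17 of 115 at 24 hpf.

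Between 6 and 24 hpf, the log2 difference of miR-20a-5p was 1.33, with an SE of 0.66, and it did not pass (edgeR adjusted p = 0.214, unadjusted p = 0.112). In this comparison 12 of the 69 tested microRNAs, 17.4%, had an adjusted p under 0.05, and neither of the 2 tested members was among them. The spread at 11 hpf entered this test, because the stages share one estimate of it. Scaled by TMM, a method that sets libraries level on the bulk of their microRNAs, the level was 987 and 961 at 6 hpf, 3936 and 1108 at 11 hpf, and 2459.5 and 2458 CPM at 24 hpf. The 6 and 24 hpf pairs were thus close together, and the 11 hpf pair was wide apart. With only the 6 and 24 hpf libraries in the fit the difference was again 1.33 (SE 0.14) and passed, with an edgeR adjusted p of 0.0181, in a fit that called 28 of the 69 microRNAs (40.6%). That SE lies below the counting error of 62 reads at 6 hpf and 528 at 24 hpf and is too small. The adjusted p comes from the same fit and shares this limit. The difference also passed without either 11 hpf library, at 1.33 without replicate 1 and 1.40 without replicate 2. A lone 11 hpf library adds nothing to the spread, so both fits take it from the same 6 and 24 hpf pairs. They are therefore not independent of the fit of those stages alone. Without replicate 1 the SE again lies below counting error and is too small. Those fits called 28 of 69 (40.6%) and 24 of 69 (34.8%), so calls rose in number over all microRNAs and not for miR-20a-5p alone. Leaving out a library of the compared stages gave 1.35 and 1.67 (6 hpf replicates 1 and 2) and 1.56 and 1.33 (24 hpf replicates 1 and 2). In none of those fits did miR-20a-5p pass. Each leaves a lone library in a compared stage and called fewer microRNAs than the fit of all libraries, so this was not particular to miR-20a-5p. In all, 5 of 15 alternatives passed, but the alternatives share libraries and are not independent tests. Every one of the 15 put the difference above 0, from 1.33 to 2.57.

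The size of that difference depended on the scaling, which moves all microRNAs of a comparison nearly alike. The median log2 difference of all tested microRNAs was -0.36 with TMM and 0.18 with RLE size factors. It was 0.73 when libraries were scaled by their microRNA reads alone and 0.88 by the totals behind the authors' RPM. miR-20a-5p lay above that median by 1.70 with TMM, a distance that rescaling libraries leaves almost as it is. With the miR-430 family left out before scaling and filtering, a change in which microRNAs enter the median, it was 1.22. With those totals the difference itself was 2.57 (SE 0.48, edgeR adjusted p = 0.0411), and in DESeq2 it was 1.88 (SE 0.72, adjusted p = 0.0413). These called 19 of 69 (27.5%) and 16 of 69 (23.2%).

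Between 6 and 11 hpf miR-20a-5p differed by 1.37 (SE 0.67, edgeR adjusted p = 0.524), which did not pass, against 4 calls among 69 tested microRNAs (5.80%). In the authors' RPM its 11 hpf levels, 13.9 and 5.88, both lay above those of 6 hpf, 2.67 and 2.80. With TMM scaling a single library set most of the difference. Without 11 hpf replicate 1 the log2 difference was 0.19 (edgeR adjusted p = 0.714), and without 11 hpf replicate 2 it was 1.91 (edgeR adjusted p = 0.0618). Between 11 and 24 hpf it differed by -0.04 (SE 0.65, edgeR adjusted p = 1.0), a value whose sign turned in 12 of 15 alternatives. No microRNA passed in that comparison (0.0% of 69, with 14 at an unadjusted p under 0.05 in edgeR and 3 calls in DESeq2). Without 11 hpf replicate 1 the difference between 11 and 24 hpf was 1.15 and did not pass. That fit holds a lone 11 hpf library, and its SE lies below counting error and is too small.

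**Figure D2:**
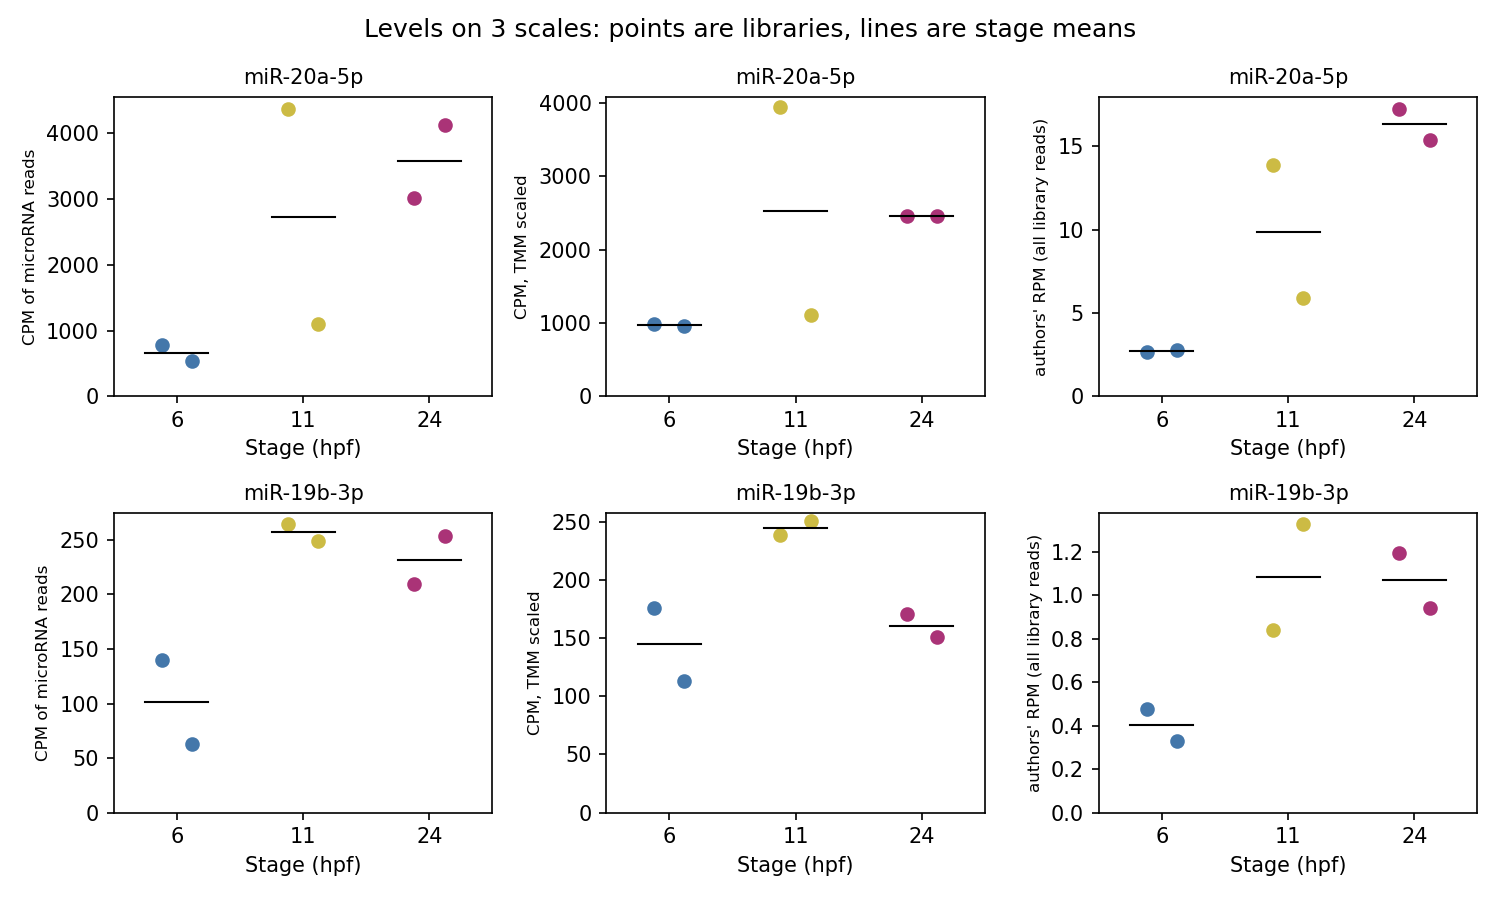
Levels of miR-20a-5p (upper row) and miR-19b-3p (lower row) by stage, in CPM of microRNA reads, in CPM after TMM scaling, and in the authors' RPM over all library reads. Points are libraries and lines are stage means, and the axes start at 0. The 11 hpf points of miR-20a-5p are far apart on each scale, at 3936 and 1108 CPM with TMM.

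The other members with the seed AAAGTGC or from the same hairpin were seen in few libraries. miR-20a-3p, the opposite arm of mir20a and usually the strand that is discarded, had 13 reads in 24 hpf replicate 1 and 0 in the other 5 libraries. In that library miR-20a-5p had 15.5 reads for each read of the 3p arm, while 24 hpf replicate 2 had 326 reads of the 5p arm and none of the 3p arm. miR-17a-5p, the namesake of the cluster, had 15 and 1 reads at 24 hpf and none earlier. Together the microRNAs with this seed had 28 and 34 reads at 6 hpf, 198 and 53 at 11 hpf, and 217 and 327 at 24 hpf, so adding miR-17a-5p changed the seed group little.

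miR-18c carries the miR-18 seed, and its hairpin belongs to the group of mir363 and mir19c. It had 24 reads in 24 hpf replicate 1 and 0 in every other library. miR-19c-3p, from the same group of hairpins, had 39 reads in that library, 7 in 11 hpf replicate 2 and 0 elsewhere. miR-363-3p of that group had 1 and 53 reads at 6 hpf, 40 and 111 at 11 hpf, and 174 and 181 at 24 hpf. It was thus present at about equal counts in the 24 hpf libraries, of which only 1 held reads of miR-18c or miR-19c-3p.

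The miR-19 3p arms were scarce. miR-19b-3p had 5 and 4 reads at 6 hpf, 12 and 12 at 11 hpf, and 14 and 20 at 24 hpf. In CPM these were 140.0 and 62.6, 265 and 249, and 209 and 253. On this scale both later stages lay above 6 hpf and overlapped each other, but after TMM scaling the 24 hpf libraries, at 170.5 and 151, fell between the 6 hpf libraries at 176 and 113. miR-19b-3p differed by 0.76 (SE 0.39, edgeR adjusted p = 0.524) between 6 and 11 hpf, by -0.60 (SE 0.38, edgeR adjusted p = 0.442) between 11 and 24 hpf, and by 0.15 (SE 0.38, edgeR adjusted p = 0.792) between 6 and 24 hpf. These SEs lie below the counting error of so few reads and are too small. None of the differences passed, nor did any in the 14 alternatives that gave a value in each comparison. Of these, DESeq2 gave no adjusted p between 6 and 11 hpf.

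miR-19a-3p had 66 and 2 reads at 24 hpf and none earlier. Over the stage that was at least 15.5-fold higher at 24 than at 6 hpf per microRNA read, taking 3 reads over the 6 hpf libraries as the floor. That value rests on 24 hpf replicate 1, since replicate 2 alone, with 2 reads, lies below the floor. Its exact 95% interval in replicate 1 was 763 to 1256 CPM, against 3.07 to 91.5 in replicate 2. If each read was counted once, the division between names plays no part in a sum over the miR-19 seed. In that sum the libraries had 5 and 4, 12 and 19, and 119 and 22 reads. In CPM these were 140.0 and 62.6, 265 and 394, and 1779.7 and 279, so the gap between the 24 hpf libraries was still present in the sum. miR-19d-5p, from the opposite arm of its hairpin and with a seed of its own, had 23 reads in 11 hpf replicate 1 and 0 elsewhere. In that library 7 of the 134 listed microRNAs, 5.22%, had at least 10 reads and none in the other 11 hpf library. miR-25-3p, from the neighbouring hairpin, had 161 and 287 reads at 11 hpf.

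The 24 hpf libraries differed in which members they held. In replicate 1, 3 of the 8 members (miR-18c, miR-19c-3p and miR-20a-3p) had at least 10 reads with none in replicate 2, against 16 of all 134 listed microRNAs, 11.9%. No member showed the opposite pattern, which 7 of the 134 did, 5.22%. With miR-17a-5p and miR-19a-3p, at 15 against 1 and 66 against 2 reads, 5 members were found mainly in replicate 1. Replicate 2 had more microRNA reads, 78973 against 66864. The 93 microRNAs with at least 10 reads over both libraries were ranked by the ratio of replicate 1 to replicate 2, with 1 read added. The 5 members ranked 2, 10, 11, 16 and 23, so other microRNAs leaned to replicate 1 as strongly. miR-20a-5p and miR-19b-3p, at 202 against 326 and 14 against 20 reads, did not lean to replicate 1 and ranked 60 and 52. Without replicate 1, 4 of the 8 members had reads at 24 hpf, in place of 7. Several nervous system microRNAs leaned the same way, with miR-124-3p at 32 and 0 reads, miR-218a at 16 and 2, miR-9-5p at 18 and 2, and miR-128-3p at 24 and 1. miR-96-5p of sensory organs had 26 and 1 reads. Not all markers did: miR-9-4-3p had 0 and 42 reads, miR-206-3p of muscle 51 and 50, and miR-182-5p of sensory organs 49 and 82. In sum the nervous system list stood at 1346 and 595 CPM in the 24 hpf libraries, and its part in the members' reads was not tested.

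**Figure D3:**
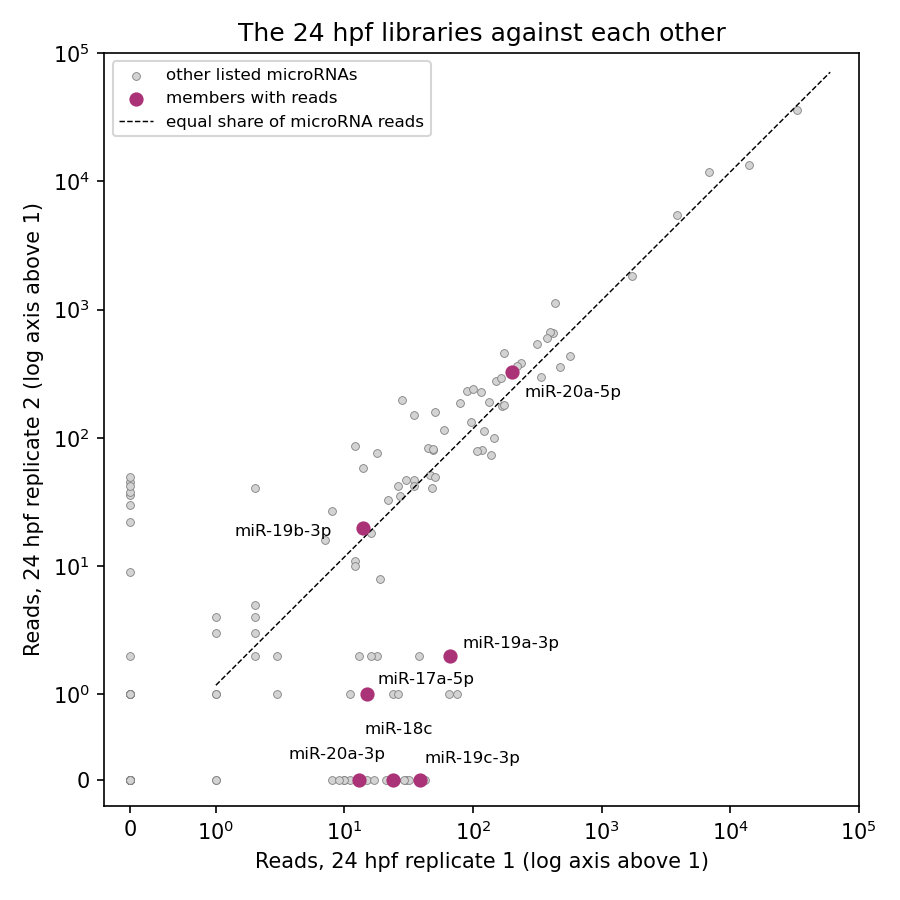
Reads of each listed microRNA in 24 hpf replicate 1 (x axis) and replicate 2 (y axis), on log axes that become linear below 1, with members in purple. miR-20a-5p and miR-19b-3p lie near the dashed line of equal share, and 5 members lie near the lower edge with 0 to 2 reads in replicate 2.

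Of the 8 members, 2 passed the filter on low counts and 6 were not tested. The counts of libraries without overlap can be given for all 8. At 11 hpf, 2 of 8 members (miR-20a-5p and miR-19b-3p) were above 6 hpf in every library in CPM, against 23.1% of the 134 listed microRNAs. At 24 hpf, 4 of 8 were above 6 hpf (also miR-17a-5p and miR-19a-3p), against 32.1%, and 3 of 8 after TMM scaling, against 21.6%. Between 11 and 24 hpf, 2 of 8 (miR-17a-5p and miR-19a-3p) were higher at 24 hpf, against 25.4%. For miR-17a-5p and miR-19a-3p the order in both comparisons with 24 hpf rests on 1 and 2 reads in replicate 2. Those counts lie below the floor of 3 reads, so their order against a 0 is uncertain. Without the filter, when all 8 members entered the fit, none of the 6 passed in any comparison, and their smallest edgeR adjusted p was 0.409. Of all 134 microRNAs that fit called few: 3 between 6 and 11 hpf, 0 between 11 and 24 hpf and 5 between 6 and 24 hpf.

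The list of miR-92, miR-25 and miR-363, families with hairpins beside those of members, had 6 listed arms, all tested. Of these miR-92b-3p comes from mir92b, which has no member hairpin beside it in the annotation used for gene order. Between 6 and 24 hpf 1 of the 6 fell, miR-92a-5p, and miR-92b-3p was the 1 that rose, against 12 calls among all 69 tested (17.4%). miR-92a-2-5p, with 31 and 65 reads at 6 hpf and 0 in every later library, lay just over the threshold (edgeR adjusted p = 0.0505). The median log2 difference was 0.45 in this list, 0.74 over the 2 tested members and -0.36 over all 69 tested. Between 6 and 11 hpf 1 of 6 rose (miR-92b-3p, edgeR adjusted p = 0.00546), against 4 calls among all 69 (5.8%). The medians were 0.52 in this list, 1.06 over the 2 tested members and -0.08 over all. Between 11 and 24 hpf none of the 6 passed, with medians of -0.01, -0.32 and -0.08. Here miR-92a-2-5p, without reads at either stage, could not pass, and its log2 difference of 0 entered the median of this list.

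Ratios of reads within a library do not depend on scaling. miR-92a-3p, encoded next to mir19b and mir20a and also at a second locus, had 41.1 and 37.5 reads for each miR-20a-5p read at 6 hpf. The ratio was 11.1 and 42.4 at 11 hpf and 19.2 and 16.9 at 24 hpf. The 24 hpf ratios were lower than both 6 hpf ratios, and 11 hpf replicate 2 resembled the 6 hpf libraries while replicate 1 did not. For each miR-19b-3p read there were 230.4 and 318.5 miR-92a-3p reads at 6 hpf, 183 and 187 at 11 hpf, and 277 and 275 at 24 hpf. The 24 hpf ratios thus lay between those of 6 hpf. Relative to miR-19b-3p, miR-20a-5p had 5.60 and 8.50 reads per read at 6 hpf, 16.5 and 4.42 at 11 hpf, and 14.4 and 16.3 at 24 hpf. The ratios to miR-19b-3p at 6 hpf rest on its 5 and 4 reads.

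The patterns most like those of the tested members were found by the root-mean-square difference of log2 TMM-scaled levels, each centred on its mean over the 6 libraries. For miR-19b-3p the nearest was its cluster partner miR-92a-3p, at 0.24, followed by miR-30d at 0.28 and miR-30e-5p at 0.29. The median was 1.21 over the tested microRNAs outside the members. The order of these nearest patterns is uncertain, and so is how near they are. The log2 levels include a small added count, the edgeR default, which flattens microRNAs of few reads. Per library miR-19b-3p had 4 to 20 reads, miR-30d 6 to 35 and miR-30e-5p 4 to 18. For miR-20a-5p the nearest were miR-30d at 0.53, miR-10b-5p at 0.55 and miR-26a-5p at 0.59, with a median of 1.37. miR-19b-3p and miR-20a-5p differed from each other by 0.74.

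**Figure D4:**
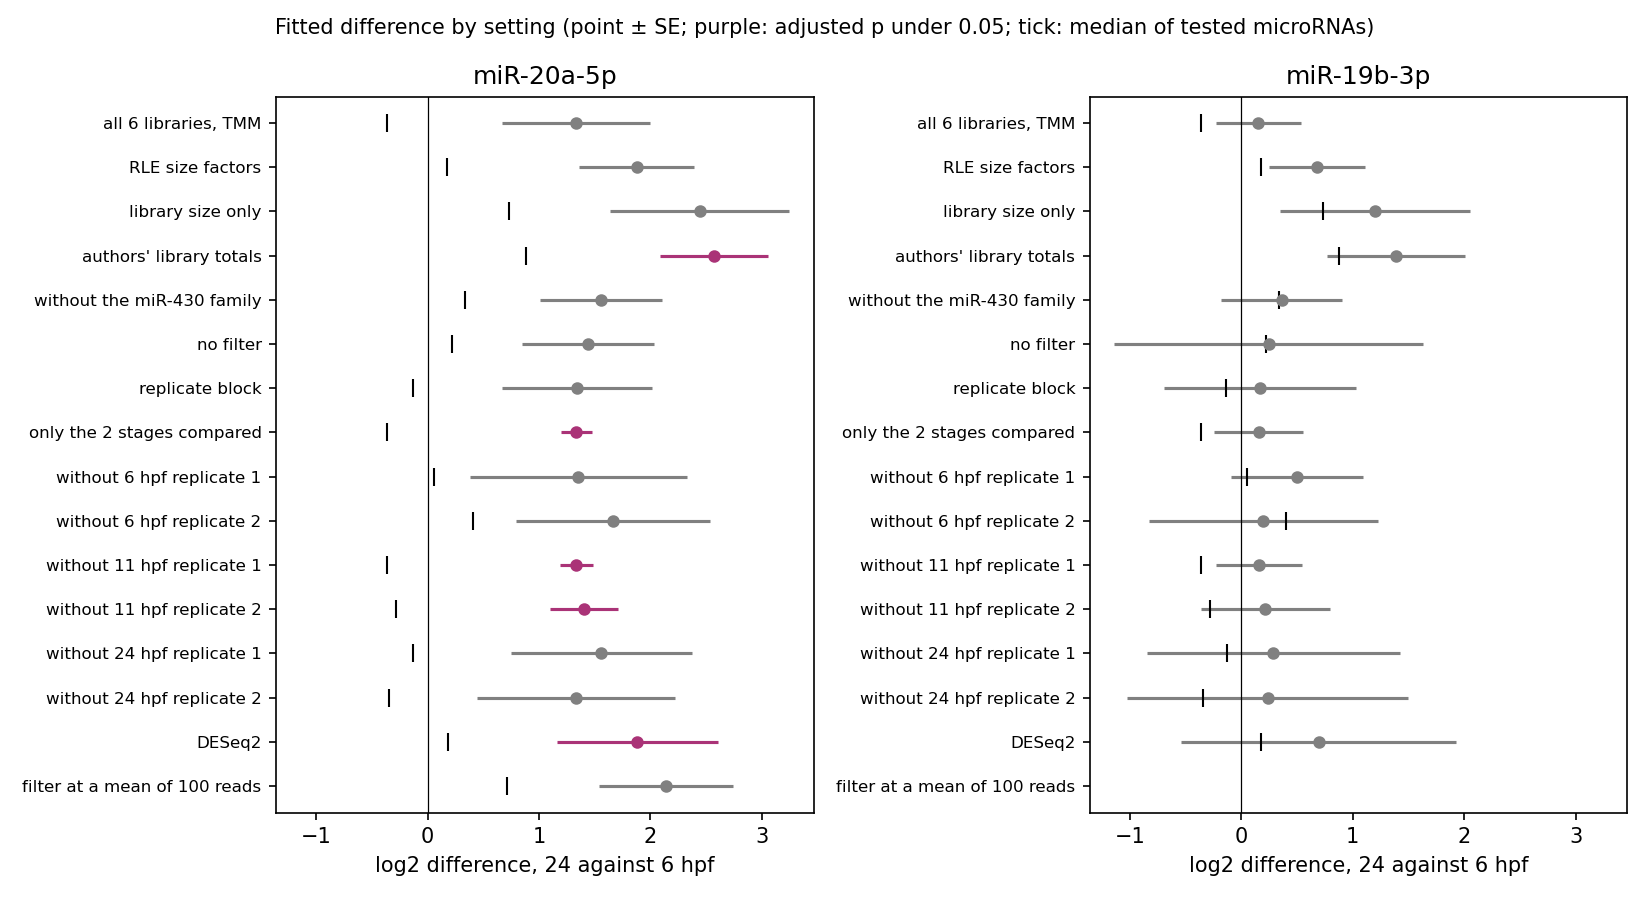
Fitted log2 difference between 24 and 6 hpf of miR-20a-5p (left) and miR-19b-3p (right) under each setting. Bars are the standard error, some shorter than counting error allows, and ticks are the median of all tested microRNAs. Purple marks an adjusted p under 0.05, and miR-19b-3p was not tested at a mean of 100 reads. Every miR-20a-5p point lies above 0, from 1.33 to 2.57, and 5 of the 15 alternatives are purple.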

How the data were processed

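Small RNA libraries were made by a microscale method, per the labels' protocols, and the submitters' processing notes name Bowtie 1.0.0-5 and the build danRer11. The deposited table holds, for each mature microRNA, its sequence, raw whole-number read counts, and RPM values deposited by the authors. Each RPM equals the count times 1 constant per library, implying totals of 9019179 to 21230244 reads. The labels and the table state neither the counting rule nor the annotation.

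Counts were tested with edgeR 4.0.16 (quasi-likelihood, R 4.3.3) in a single fit of the 6 libraries, by stage and with no further term. The filter, filterByExpr with a minimum count of 10, kept 69 of 134. TMM factors ran from 0.554 to 1.68. An adjusted p under 0.05 over the 69 (Benjamini-Hochberg) was called. The standard error was taken as the difference divided by the square root of F. It can fall below counting error and is then too small. DESeq2 1.42.0, other scalings, filters, a replicate term and libraries left out were alternatives. Where a stage is left with a lone library, that library is assumed to vary like those of the other stages. Scripts were tested on simulated data. The members, lists and tests were chosen with earlier results of these data known. The microRNAs named outside the members were the 3 nearest patterns to each tested member, all cluster partners, and those sharing a seed or within an edit distance of 3 of a member. The miR-430 arms and the markers named by reads were added after their values had been seen. Intervals are exact (SciPy 1.17.1), edit distances are from edlib 1.3.9.post1 and figures from matplotlib 3.10.9.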

Additional observations from a re-analysis of the deposited data

How the results depend on the processing

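The differences of miR-19b-3p kept their direction and side of the threshold in all 14 alternatives run in each comparison (DESeq2 gave no adjusted p between 6 and 11 hpf), as did that of miR-20a-5p between 6 and 11 hpf in all 15. Between 6 and 24 hpf miR-20a-5p passed in 5 of 15. Its difference between 11 and 24 hpf changed sign with RLE size factors (0.36), library size only (0.39), the authors' library totals (0.72), the miR-430 family left out (0.11), no filter (0.084), a filter at a mean of 100 reads (0.31), the replicate block (0.14), only the stages compared (0.10) and DESeq2 (0.36), none of them passing. With libraries left out it ran from -0.50 to 1.15. The cause was not tested. At the filter of 100 reads miR-19b-3p could not be tested.

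The log2 ratio of the summed member level was 2.13 between 6 and 11 hpf, 0.59 between 11 and 24 hpf and 2.72 between 6 and 24 hpf, per microRNA read. Outside the miR-430 family it was -0.070 between 11 and 24 hpf and 1.30 between 6 and 24 hpf, where TMM gave 1.68. With libraries left out the ratio between 11 and 24 hpf ran from -0.041 (without 11 hpf replicate 2) to 1.74 (without 11 hpf replicate 1).

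The number of calls over all microRNAs moved more. Between 6 and 11 hpf it was 4, and 1 with the authors' totals, 1 without the miR-430 family, 0 with only the stages compared, 7 with DESeq2 and 0 to 3 with libraries left out (0 without 6 hpf replicate 2). Between 11 and 24 hpf it was 0, and 8 with RLE, 3 with the authors' totals, 1 at the filter of 100 reads and 3 with DESeq2. Between 6 and 24 hpf it was 12, and 19 with the authors' totals, 5 without a filter, 28 with only the stages compared and 0 to 28 with libraries left out (0 without 6 hpf replicate 2, 28 without 11 hpf replicate 1). Of the 12 calls 6 were higher, and 15 of 19 with the authors' totals. With the replicate block 4 were called. Whether the replicate numbers pair the libraries is not stated. Same-numbered deviations correlated at 0.14 between 6 and 11 hpf, 0.06 between 6 and 24 hpf and -0.24 between 11 and 24 hpf. Noise at low counts also lowers such correlations, so they cannot settle the pairing. With the 11 hpf numbers crossed in the block, chosen after seeing the data, 0 were called between 11 and 24 hpf. The 6 members outside the test had between 0 and 66 reads per library, and the deeper 24 hpf library, replicate 2, held 0 to 2 reads of each.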
